A study of Mus musculus with 12 samples.

Results

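The 6 libraries described here compare lenses without a functional *Trpm3* gene with wild-type lenses, and were taken from the 12 RNA-seq libraries of the series by their genotype labels, 3 *Trpm3*-KO and 3 WT. The other 6 libraries, 3 *Trpm3*-I/M and 3 *Trpm3*-M/M, came from mice that carry a methionine substitution in the channel on 1 or on both chromosomes. They served here to estimate the spread between libraries, and they counted toward the minimum level that a gene needed to be tested. Each library was a pool of 4 male and 4 female lenses at P7 (postnatal day 7), so a library stands for several mice. The *Trpm3*-KO mice were made by homologous recombination, rederived from stored embryos, and kept like the wild-type mice on the C57BL6/J background, according to the study's methods. The knockout was germline, with no Cre driver restricting it to the lens. Polyadenylated RNA was sequenced, and total counts on genes ran from 56162169 to 57480971 in WT and from 56945022 to 60992835 in *Trpm3*-KO libraries. All changes below are log2 fold changes of *Trpm3*-KO over WT, with positive values higher in *Trpm3*-KO. Levels are CPM, a gene's share of the library's counts (counts per 1000000) after TMM (trimmed mean of M-values) scaling.

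TRPM3 is a nonselective cation channel of the melastatin group of transient receptor potential (TRP) channels. It conducts calcium, opens with heat and with the steroid pregnenolone sulfate, and is known from sensory neurons, pancreatic beta cells, and the lens epithelium. An intron of its gene hosts *Mir204*. The lens is a single layer of epithelial cells over a mass of elongated fiber cells, which fill with crystallins and lose their organelles, and which depend on ion pumps, connexins and aquaporins for fluid balance.

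*Trpm3* itself (chromosome 19, 22139046 to 22995410 of GRCm38) was at 269.9, 251 and 285 CPM in WT and 89.9, 99.7 and 96.3 CPM in *Trpm3*-KO libraries. The groups were thus far apart, and *Trpm3* fell, changing by −1.49 (standard error 0.06, adjusted p = 3.36e-09) by the quasi-likelihood test of edgeR, its p adjusted by Benjamini-Hochberg over all tested genes as every adjusted p below. Counts were summed over the whole gene, and they do not tell which exons they came from. *Mir204* was listed at 0 in all 12 libraries, which were made from polyadenylated RNA and are not a measure of a mature microRNA. Of the 28 TRP channel genes in the list, 8 were tested and *Trpm3* was the 1 that passed. *Trpm1*, the closest melastatin relative and host of *Mir211*, was at 8.38, 7.08 and 6.80 CPM in WT and 7.78, 7.92 and 7.72 CPM in *Trpm3*-KO libraries, with overlapping groups, and did not pass (adjusted p = 0.742).

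Among 8984 tested genes, 392 (4.36%) passed an adjusted p of 0.05, of which 194 (2.16%) were higher and 198 (2.20%) lower in *Trpm3*-KO lenses. In 391 of the 392 the *Trpm3*-KO libraries lay all above or all below the WT libraries. The 392 were selected by this same difference, so their separation is no further support. Its share over all 8984 tested genes was not counted. Most of the 392 changes were small. Their median fold change was 1.37, 255 of the 392 differed by less than 1.5-fold, 86 by 1.5-fold to 2-fold, and 51 (0.568% of tested genes) by at least 2-fold. The 51 comprised 21 higher (0.234%) and 30 lower genes (0.334%). With library size in place of TMM factors, 252 genes were higher and 114 lower, so the share of higher genes moved from 49.5% to 68.9%, while the median of all genes moved by 0.05. Leaving out *Trpm3*-KO replicate 1, 2 or 3 left 13, 13 or 12 higher genes past both thresholds, and 10, 9 or 10 of the 51 genes then no longer reached the minimum level in 3 libraries. Without *Trpm3*-KO replicate 2, 121 genes were higher and 114 lower at the adjusted p alone, and without replicate 3 the counts were 118 and 116. The labels do not say whether pools of a group came from separate litters, so p-values measure the spread between these pools.

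**Figure D1:**
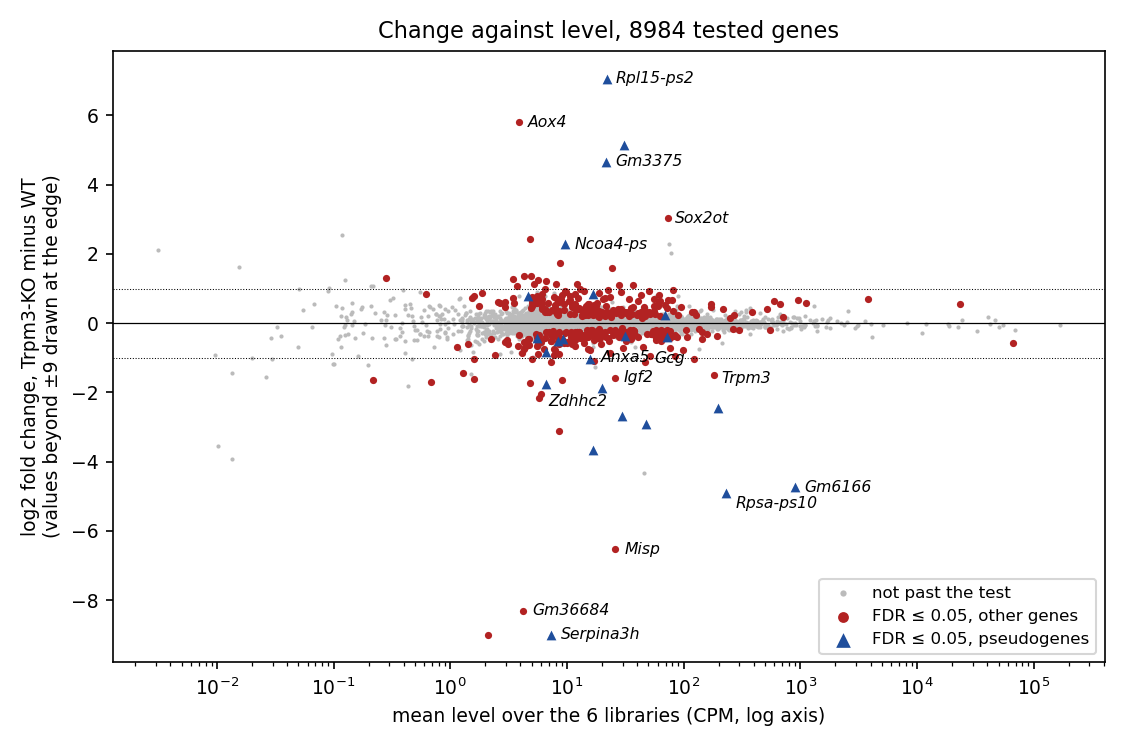
Log2 fold change of Trpm3-KO over WT against the mean CPM of the 6 libraries (log axis), 1 point for each of 8984 tested genes. Most genes that passed (red, with pseudogenes as blue triangles, and genes that did not pass in gray) lie between the dotted lines at 2-fold, while 14 pseudogenes lie outside them and 2 genes at 0 in all Trpm3-KO libraries are drawn at −9.

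Sequence shared between genes marked many of the largest changes. Of 212 tested pseudogenes, 23 passed (10.8%, against 4.18% of 8653 protein-coding genes), 7 higher and 16 lower, and 14 of the 51 genes past both thresholds were pseudogenes. A processed pseudogene is a copy of an mRNA that was written back into the genome, and its reads can be nearly the same as those of its parent gene. Longest transcripts of tested genes were therefore aligned to all transcripts of the other tested genes, and genes joined by at least 90% identity over at least 70% of the transcript were put in 1 family. There were 209 families with 494 genes, and 28 families held a gene that passed. Within 8 of these 28 families, 1 or more members rose and 1 or more fell.

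Coding stretches of 60 bases are shown for 6 of the 8 families with opposite changes, because they show how little sequence separates members that moved apart. Each is the stretch within 1 exon of the parent's coding sequence that holds most differences, read 5′ to 3′ on the gene's own strand from the GENCODE vM21 transcripts of GRCm38. Capitals mark bases at which a copy and its parent differ. The parent *Rpl15* lies at chr14:18270295-18270354 on the reverse strand, with *Gm4294* at chr12:12023139-12023198 on the forward strand, *Rpl15-ps2* at chr9:72061031-72061090 on the forward strand, *Rpl15-ps3* at chr9:22186066-22186125 on the reverse strand and *Rpl15-ps6* at chr15:52478073-52478132 on the reverse strand.
Rpl15: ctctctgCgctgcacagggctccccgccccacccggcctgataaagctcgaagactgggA
Gm4294: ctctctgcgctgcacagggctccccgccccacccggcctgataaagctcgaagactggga
Rpl15-ps2: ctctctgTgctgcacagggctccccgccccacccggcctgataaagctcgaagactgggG
Rpl15-ps3: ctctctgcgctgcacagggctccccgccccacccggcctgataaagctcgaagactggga
Rpl15-ps6: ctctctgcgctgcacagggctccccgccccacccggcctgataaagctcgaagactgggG
Over the 612 bases of coding sequence, *Rpl15-ps3* had 0 mismatches to *Rpl15*, *Rpl15-ps6* had 2 and *Rpl15-ps2* had 8, and *Gm4294* had 0 over 608 aligned bases.

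For *Fabp5* (chr3:10012640-10012699 on the forward strand) and *Gm6166* (chr9:57483963-57484022 on the forward strand), 5 of 405 coding bases differed. For *Rpsa* (chr9:120129184-120129243 on the forward strand) and *Rpsa-ps10* (chr3:150073324-150073383 on the reverse strand), 6 of 885 differed.
Fabp5: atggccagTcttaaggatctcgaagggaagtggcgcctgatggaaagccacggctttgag
Gm6166: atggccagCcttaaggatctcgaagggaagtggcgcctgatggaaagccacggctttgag
Rpsa: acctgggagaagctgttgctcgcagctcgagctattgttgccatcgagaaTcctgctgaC
Rpsa-ps10: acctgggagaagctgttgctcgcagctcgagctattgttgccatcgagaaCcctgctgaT
*Psmb5* (chr14:54616697-54616756 on the reverse strand) and *Gm3375* (chr7:3181357-3181416 on the forward strand) differed at 8 of 792 bases, and *Ncoa4* (chr14:32176477-32176536 on the forward strand) and *Ncoa4-ps* (chr12:119262230-119262289 on the forward strand) at 2 of 1875.
Psmb5: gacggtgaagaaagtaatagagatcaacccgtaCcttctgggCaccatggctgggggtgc
Gm3375: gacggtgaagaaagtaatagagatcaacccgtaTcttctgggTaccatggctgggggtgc
Ncoa4: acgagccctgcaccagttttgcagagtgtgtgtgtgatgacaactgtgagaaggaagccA
Ncoa4-ps: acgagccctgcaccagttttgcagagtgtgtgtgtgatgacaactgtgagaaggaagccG
The γ-crystallin genes *Cryge* (chr1:65048681-65048740 on the reverse strand) and *Crygf* (chr1:65928127-65928186 on the forward strand) differed at 10 of 522 coding bases.
Cryge: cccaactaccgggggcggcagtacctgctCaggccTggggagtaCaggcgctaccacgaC
Crygf: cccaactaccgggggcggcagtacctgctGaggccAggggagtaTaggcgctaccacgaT

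*Rpl15*, a protein of the large ribosomal subunit, was at 223, 265 and 235 CPM in WT and 206, 199.7 and 198 CPM in *Trpm3*-KO libraries, and did not pass (adjusted p = 0.0624). Its copy *Rpl15-ps2* was at 0.275, 0.420 and 0.278 CPM in WT and 46.2, 41.5 and 42.6 CPM in *Trpm3*-KO libraries, and *Rpl15-ps6* at 1.49, 1.91 and 1.72 CPM in WT and 61.5, 62.1 and 58.3 CPM in *Trpm3*-KO libraries. Both rose in every *Trpm3*-KO library, with changes of 7.07 (standard error 0.13, adjusted p = 9.38e-13) and 5.15 (standard error 0.17, adjusted p = 2.22e-10). These copies, like *Gm3375* and *Ncoa4-ps* below, reached the minimum level for testing through their *Trpm3*-KO libraries, so they could pass only as rises. The copies *Rpl15-ps3* and *Gm4294* fell, by log2 fold changes of −3.67 and −2.70 with adjusted p of 6.2e-08 and 2.35e-08. Summed over the 5 genes, the level was 311, 345 and 324 CPM in WT and 323, 314 and 311 CPM in *Trpm3*-KO libraries. The groups overlapped, and the summed change of −0.05 (standard error 0.05, adjusted p = 0.648) did not pass.

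*Gm6166* was at 1587, 1902 and 1685 CPM in WT and 66.6, 69.3 and 58.1 CPM in *Trpm3*-KO libraries, with a change of −4.74 (standard error 0.09, adjusted p = 9.38e-13). Its parent *Fabp5*, a fatty acid-binding protein abundant in the lens, was at 2799.7, 3184 and 2772 CPM in WT and 4952, 4751 and 4501 CPM in *Trpm3*-KO libraries and rose by 0.70 (adjusted p = 2.14e-05). The sum of the 2 genes was 4391, 5095 and 4463 CPM in WT and 5021, 4826 and 4559 CPM in *Trpm3*-KO libraries, with overlapping groups and a change of 0.05 (standard error 0.06, adjusted p = 0.773). In the *Rpsa* family the sum behaved differently. *Rpsa-ps10* was at 367, 481 and 506 CPM in WT and 15.5, 14.7 and 14.4 CPM in *Trpm3*-KO libraries, and *Rpsa*, a small-subunit ribosomal protein that also binds laminin, at 478, 484 and 445 CPM in WT and 758, 715 and 712 CPM in *Trpm3*-KO libraries. Counted alone, *Rpsa* rose by 0.63, whereas the sum went from 845, 967 and 952 CPM to 774, 730.1 and 727 CPM, a change of −0.31 (standard error 0.06, adjusted p = 0.00674).

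*Psmb5*, the chymotrypsin-like subunit of the proteasome, was at 119, 129 and 126 CPM in WT and 74.3, 71.6 and 73.03 CPM in *Trpm3*-KO libraries, and *Gm3375* was at 1.55, 1.83 and 1.59 CPM in WT and 42.7, 41.9 and 41.4 CPM in *Trpm3*-KO libraries. Counted alone they changed by −0.77 (standard error 0.05, adjusted p = 7.25e-07) and 4.67 (standard error 0.09, adjusted p = 1.35e-12). Their sum of 120.2, 131 and 128 CPM in WT and 117, 114 and 114 CPM in *Trpm3*-KO libraries changed by −0.14 (standard error 0.05, adjusted p = 0.175). *Ncoa4*, the receptor that carries ferritin to autophagosomes, was at 36.7, 37.6 and 38.9 CPM in WT and 21.1, 23.4 and 24.3 CPM in *Trpm3*-KO libraries and *Ncoa4-ps* at 2.91, 3.66 and 3.27 CPM in WT and 16.1, 15.8 and 15.99 CPM in *Trpm3*-KO libraries, and their sum changed by −0.08 (standard error 0.05, adjusted p = 0.456). Neither sum passed. Copies of *Eno1*, *Hspa8*, *Rpl21* and *Cox7a2l* were also among the largest falls, *Gm4735* (−2.93), *Gm15459* (−2.46), *Gm10240* (−1.87) and *Gm6969* (−1.77). Summed with its family, *Cox7a2l* fell (−0.22, standard error 0.04, adjusted p = 0.00915), whereas the 7 genes of the *Rpl21* family did not pass as a sum (0.10, standard error 0.06, adjusted p = 0.376). The sum did not pass either for *Eno1* with *Eno1b* and *Gm4735* (−0.09, standard error 0.07, adjusted p = 0.552), for *Hspa8* with 2 pseudogene copies (0.15, standard error 0.06, adjusted p = 0.168), and for the ribonucleases *Rnaset2a* and *Rnaset2b*, which counted alone changed by −0.49 and 0.44 and summed by 0.03 (standard error 0.05, adjusted p = 0.813).

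**Figure D2:**
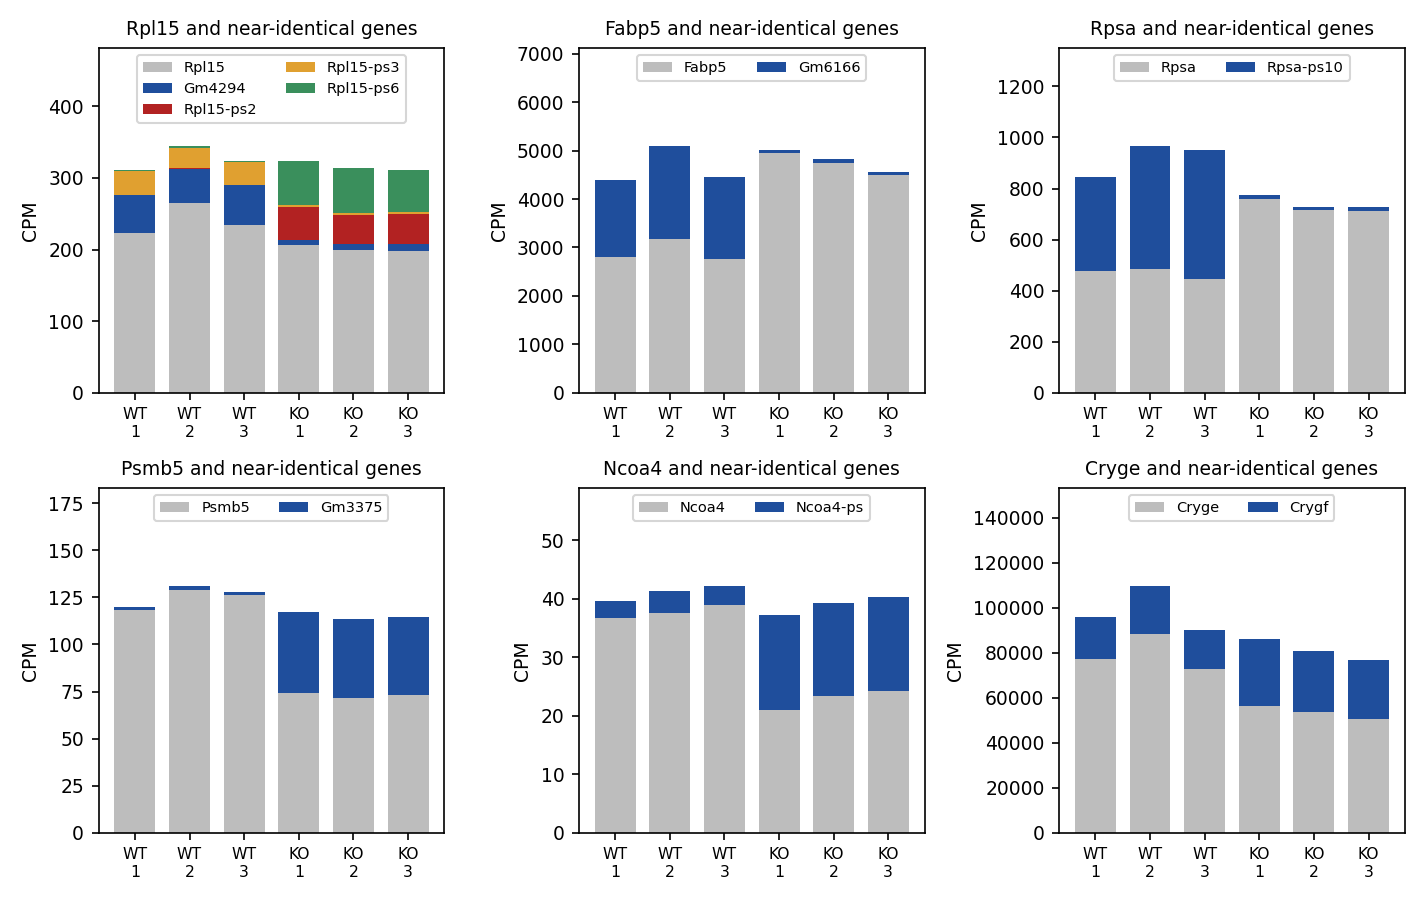
CPM in each of the 3 WT and 3 Trpm3-KO libraries for 6 families of near-identical genes, with 1 bar a library, 1 color a gene and the gene that names the family in gray. The division into colors differs more between WT and Trpm3-KO than the height, although totals of Rpsa, Psmb5 and Cryge with Crygf are lower in each Trpm3-KO library, and of the 6 summed families, with Crygd included, Rpsa was the 1 that passed.

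With each family summed to 1 feature, 366 of 8699 features (4.21%) passed, 183 higher and 183 lower, and 35 (0.402%) passed both thresholds, 16 higher and 19 lower. This alternative was chosen after the values were seen. Of the 28 families with a changed gene, 11 passed as a sum, and of the 8 with changes in both directions the 1 that passed was *Rpsa*. Families that kept a change as a sum included the dynein light chain family of *Dynlt1b*, *Dynlt1c*, *Dynlt1f* and *Dynlt1-ps1*, which all fell when counted alone and summed to −0.88 (standard error 0.05, adjusted p = 3.29e-07). The β-tubulins *Tubb2a* and *Tubb2b* summed to 0.32 (standard error 0.05, adjusted p = 0.00208). Of the 347 changed genes that belong to no family, 344 passed in both fits. Their counts are the same in both, so this agreement was nearly fixed in advance. The rule also put *Sod2* with *Rps6ka2*, because *Gm36684* shares sequence with each. Parent genes in these families were named after their values were seen.

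Large falls outside the families with opposite changes included those of a noncoding RNA, an actin-binding protein and a secreted protein. *Gm36684*, a long noncoding RNA on chromosome 17, had 1256 counts over the WT libraries and 4 over the *Trpm3*-KO libraries, a ratio of 0.00293 (95% interval 0.000796 to 0.00751, exact binomial, counting error only). *Misp*, an actin-bundling protein that positions the mitotic spindle, was at 55.1, 32.96 and 66.03 CPM in WT and 0.710, 0.615 and 0.338 CPM in *Trpm3*-KO libraries, with a change of −6.53 (standard error 0.36, adjusted p = 9.32e-08). *C1qtnf1*, a secreted protein of the C1q and tumor necrosis factor family, was at 16.97, 18.3 and 11.002 CPM in WT and 1.78, 1.81 and 1.77 CPM in *Trpm3*-KO libraries (−3.11, standard error 0.18, adjusted p = 1.11e-07). The palmitoyltransferase gene *Zdhhc2* was at 10.2, 7.29 and 10.9 CPM in WT and 2.06, 2.30 and 1.99 CPM in *Trpm3*-KO libraries (−2.16, standard error 0.27, adjusted p = 0.000282), and *Wdfy1*, an endosomal adaptor of Toll-like receptor signaling, at 9.34, 10.7 and 8.66 CPM in WT and 1.91, 2.44 and 2.55 CPM in *Trpm3*-KO libraries (−2.06, standard error 0.15, adjusted p = 1.9e-06). In all of these genes every *Trpm3*-KO library lay well under every WT library.

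*Serpina3h* and *Serpina3i*, serine protease inhibitor genes next to each other on chromosome 12, had no count in any *Trpm3*-KO library. *Serpina3h*, annotated as a pseudogene, was at 13.7, 9.62 and 20.9 CPM in WT and *Serpina3i* at 3.64, 2.98 and 5.93 CPM. Against 3 counts a library, the limit that a count of 0 allows, *Serpina3h* was at least 266-fold and *Serpina3i* at least 75.3-fold lower in *Trpm3*-KO lenses. The call of *Serpina3h* was kept in 11 of 14 other fits, which here and below are those with another scaling, filter, tool or sample set, the replicate block, or 1 library left out. One *Trpm3*-M/M library was near 0 for both as well, with *Serpina3h* at 0.0375, 12.6 and 14.3 CPM and *Serpina3i* at 0.0375, 4.46 and 3.71 CPM in the 3 *Trpm3*-M/M libraries, so levels near 0 were also seen outside *Trpm3*-KO lenses. Their neighbor *Serpina3n* was at 0.826, 0.525 and 0.674 CPM in WT and 0.0561, 0.253 and 0.263 CPM in *Trpm3*-KO libraries and did not pass (adjusted p = 0.268).

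The largest rise among genes with no close copy was that of *Aox4*, an aldehyde oxidase, from 0.118, 0.147 and 0.139 CPM in WT to 7.72, 7.89 and 7.10 CPM in *Trpm3*-KO libraries (5.80, standard error 0.24, adjusted p = 3.36e-09). *Sox2ot*, the long noncoding RNA that surrounds *Sox2* on chromosome 3, was at 17.4, 16.2 and 14.4 CPM in WT and 132, 127 and 132 CPM in *Trpm3*-KO libraries, with a change of 3.03 (standard error 0.07, adjusted p = 4.87e-12). *Sox2*, the lens and neural transcription factor gene within it, was at 18.6, 18.9 and 23.3 CPM in WT and 20.8, 23.1 and 20.3 CPM in *Trpm3*-KO libraries and did not pass (0.08, standard error 0.09, adjusted p = 0.705). The *Sox2ot* libraries were separated by a wide gap, whereas those of *Sox2* overlapped. *Sox2* was named because of its place within *Sox2ot*.

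Further rises past both thresholds were those of *4833420G17Rik* (2.44), *Tmem267* (1.74), the protocadherin *Pcdh17* (1.60), the sulfate and chloride transporter *Slc26a11* (1.36), *Cables1*, a regulator of cyclin-dependent kinases (1.36), *Shroom3*, which drives apical constriction of epithelia (1.25), *Ccbe1*, a secreted factor of lymphatic growth (1.22), the interleukin-3 receptor subunit *Il3ra* (1.14) and the methyltransferase *Mettl23* (1.12). *Pcdh17* was at 12.6, 12.6 and 10.98 CPM in WT and 31.7, 39.7 and 38.5 CPM in *Trpm3*-KO libraries. *Tmem267* was the most variable of these in *Trpm3*-KO, at 9.98, 12.4 and 18.3 CPM against 3.81, 5.06 and 3.35 CPM in WT. Their adjusted p ran from 2.35e-08 for *4833420G17Rik* to 0.00113 for *Ccbe1* and *Slc26a11*. *Aox4*, *4833420G17Rik*, *Tmem267*, *Slc26a11*, *Cables1* and *Ccbe1* were tested in only 11 of 14 other fits. So were the copies *Rpl15-ps2*, *Rpl15-ps6*, *Gm3375* and *Ncoa4-ps*. *Aox4* reached the minimum of 5 CPM in *Trpm3*-KO libraries alone. The other genes and copies named here with it fell under that minimum in fits without 1 *Trpm3*-KO library. All were thus let in through the group in which they are high, and such a gene can pass only as a rise.

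Large differences that did not pass came with a wide spread among WT pools. *Lgsn*, which encodes the glutamine synthetase-like fiber protein lengsin, was at 81.7, 9.66 and 0.654 CPM in WT and 107, 132 and 139 CPM in *Trpm3*-KO libraries, and *Palm*, a membrane-bound phosphoprotein, at 14.5, 61.9 and 0.178 CPM in WT and 126, 123 and 121 CPM in *Trpm3*-KO libraries. For both genes every *Trpm3*-KO library lay above every WT library, but the WT libraries differed among themselves by far more than the *Trpm3*-KO libraries, and the adjusted p was 0.292 and 0.194. *Gm15772* was at 41.01, 4.96 and 215 CPM in WT and 4.92, 4.05 and 3.93 CPM in *Trpm3*-KO libraries (adjusted p = 0.0602). Libraries of the 2 mutants, *Trpm3*-I/M before *Trpm3*-M/M, also differed among themselves, though less than those of WT, with *Lgsn* at 38.9, 15.1 and 8.36 CPM and 36.4, 9.12 and 11.5 CPM and *Palm* at 15.1, 14.6 and 59.998 CPM and 14.8, 25.3 and 13.3 CPM. These 3 genes were picked after their values were seen.

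**Figure D3:**
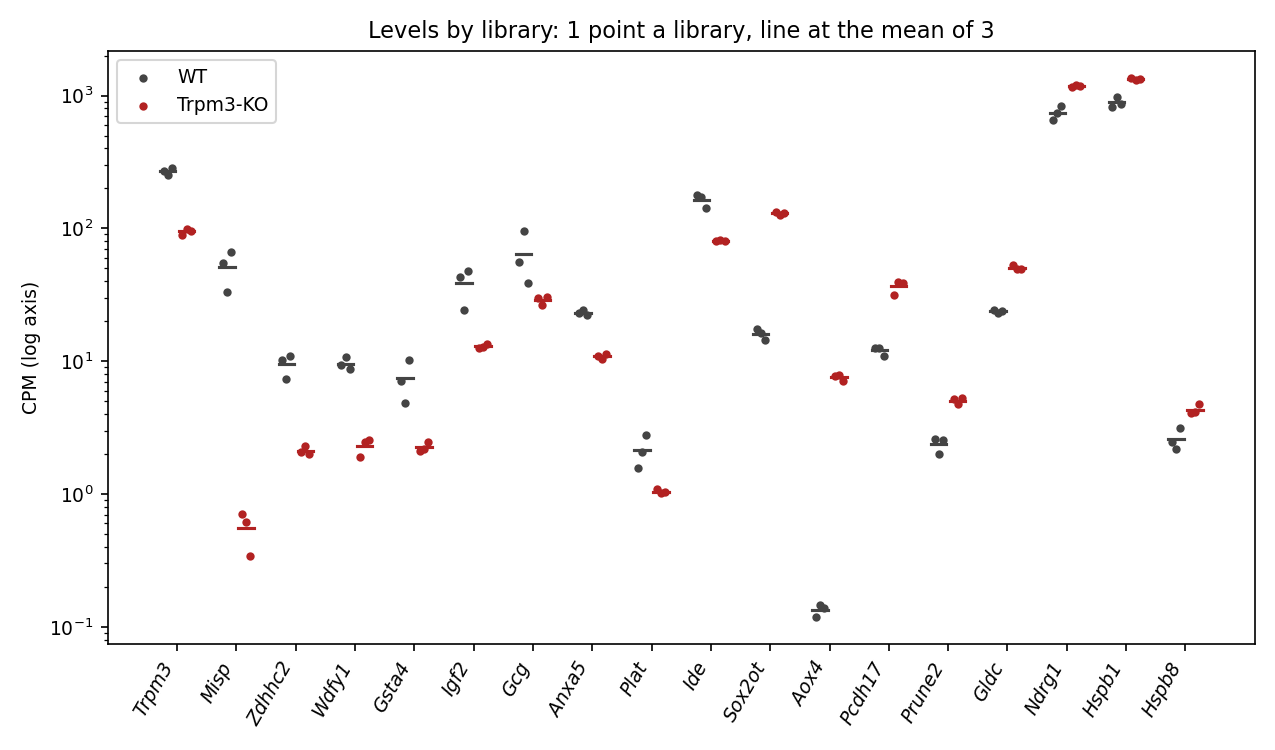
CPM on a log axis of 18 genes named in the text, with 1 point for each of the 3 WT (dark) and 3 Trpm3-KO (red) libraries and a line at each mean. All were taken from genes that passed. In each gene shown, the 3 red points lie all below or all above the 3 dark points, which selection by the test favors. The widest gaps are those of Misp, Aox4 and Sox2ot.

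The lens lists come first, and calls in every list can be read against 4.36% of all tested genes. All lists were chosen with earlier results of these data known, so their shares are descriptions. The 16 crystallin genes took 62.1% ± 1.56 (SD, n = 3) of counted reads in WT and 60.8% ± 1.17 (SD, n = 3) in *Trpm3*-KO libraries, with overlapping groups (two-sided exact permutation test, p = 0.4, where 3 libraries against 3 allow no p below 0.1). The median log2 fold change of the crystallins was −0.05, against 0.0004 for all tested genes, and the 2 of 16 that passed (12.5%, beside 4.36% of all tested genes) were *Cryge* and *Crygf*. *Cryge* was at 77241, 88480.1 and 72574 CPM in WT and 56128, 53617 and 50550.0 CPM in *Trpm3*-KO libraries (−0.57, standard error 0.09, adjusted p = 0.00188). *Crygf* was at 18497, 20997 and 17590.2 CPM in WT and 30072, 27154 and 26121 CPM in *Trpm3*-KO libraries (0.55, standard error 0.11, adjusted p = 0.00951), and the summed family, which also holds *Crygd*, changed by −0.13 (standard error 0.09, adjusted p = 0.501), which did not pass. Of 33 tested genes of the fiber membrane and cytoskeleton, *Tmod2*, which caps actin filaments, was the 1 that passed, at 16.1, 16.8 and 15.6 CPM in WT and 10.3, 13.3 and 11.9 CPM in *Trpm3*-KO libraries (−0.45, standard error 0.08, adjusted p = 0.00496). Of 25 lens transcription factors none passed, with *Maf* at 1398, 1252 and 1219 CPM in WT and 1288, 1325 and 1297 CPM in *Trpm3*-KO libraries and *Prox1* at 564, 566 and 566 CPM in WT and 548, 617 and 578 CPM in *Trpm3*-KO libraries, both with overlapping groups.

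In the lens epithelium list, 3 of 17 tested genes passed (17.6%, beside 4.36% of all tested genes). *Pdgfra*, a growth factor receptor of the epithelium, was at 82.2, 74.2 and 81.7 CPM in WT and 59.6, 56.8 and 61.6 CPM in *Trpm3*-KO libraries (−0.42, standard error 0.05, adjusted p = 0.000395). *Cdh1*, the epithelial cadherin, fell (−0.31) and the efflux transporter *Abcb1b* rose (0.50), calls that were kept in 7 of 14 and 7 of 13 other fits. *Spry1*, a feedback inhibitor of fibroblast growth factor signaling, was the 1 of 21 genes of that pathway that passed, at 40.9, 38.8 and 34.7 CPM in WT and 27.9, 25.1 and 26.7 CPM in *Trpm3*-KO libraries (−0.52, standard error 0.07, adjusted p = 0.000383). None of 12 immediate early genes passed. Summed levels of the cell cycle list overlapped between the groups, at 1187, 1167 and 1141 CPM in WT and 1191, 1132 and 1153 CPM in *Trpm3*-KO libraries. In the cell cycle list the median was −0.13, with 8 of 28 genes above 0 and 2 of 28 past the test, *Ccnd2*, a D-type cyclin, at 235, 207 and 209 CPM in WT and 167, 163 and 177 CPM in *Trpm3*-KO libraries (−0.36, standard error 0.06, adjusted p = 0.00385), and *Mcm2*, part of the replicative helicase (−0.31, adjusted p = 0.0396, kept in 8 of 14 other fits).

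In the lists of genes that handle calcium, calls can be read against 4.36% of all tested genes. None passed among 9 calcium pumps and exchangers, 5 voltage-gated calcium channels, 18 EF-hand calcium buffers, 6 S100 proteins, 10 calpains with calpastatin, or 5 sodium-potassium ATPase subunits. *Atp2a2*, the calcium pump of the endoplasmic reticulum, was at 119.7, 105 and 119 CPM in WT and 119, 121 and 116 CPM in *Trpm3*-KO libraries, and *Capn3*, the calpain of lens fibers, at 381, 375 and 386 CPM in WT and 396, 392 and 369 CPM in *Trpm3*-KO libraries. Both had overlapping groups. *Plcg1*, a phospholipase that leads to calcium release, passed among 23 genes of release and store-operated entry (−0.20, adjusted p = 0.0478), a call kept in 4 of 14 other fits. Of 20 genes for calmodulin, its kinases and calcineurin, the kinase subunit *Camk2a* rose (0.77) and *Camk1d* fell (−0.22), with calls kept in 11 of 14 and 9 of 14 other fits.

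Of 7 tested annexins, proteins that bind membranes when calcium rises, 2 passed (28.6%, beside 4.36% of all tested genes), in opposite directions. *Anxa5* was at 23.1, 24.4 and 22.1 CPM in WT and 10.9, 10.4 and 11.2 CPM in *Trpm3*-KO libraries (−1.10, standard error 0.08, adjusted p = 2.72e-06), and *Anxa2* at 36.5, 41.5 and 37.4 CPM in WT and 53.4, 51.9 and 55.1 CPM in *Trpm3*-KO libraries (0.47, standard error 0.08, adjusted p = 0.00441). Neither gene's libraries overlapped between the groups. The other 5 did not pass, with log2 fold changes from −0.31 for *Anxa1* to 0.02 for *Anxa6*. Among 21 connexins, aquaporins and volume-regulated channels, *Aqp4*, a water channel, rose from 5.96, 6.93 and 6.11 CPM to 9.61, 10.2 and 10.9 CPM (0.70, standard error 0.09, adjusted p = 0.000424). Of 16 tested potassium channels, *Kcnd3* (0.28) and *Kcnj10* (0.59) rose, calls kept in 11 of 14 and 6 of 13 other fits.

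**Figure D4:**
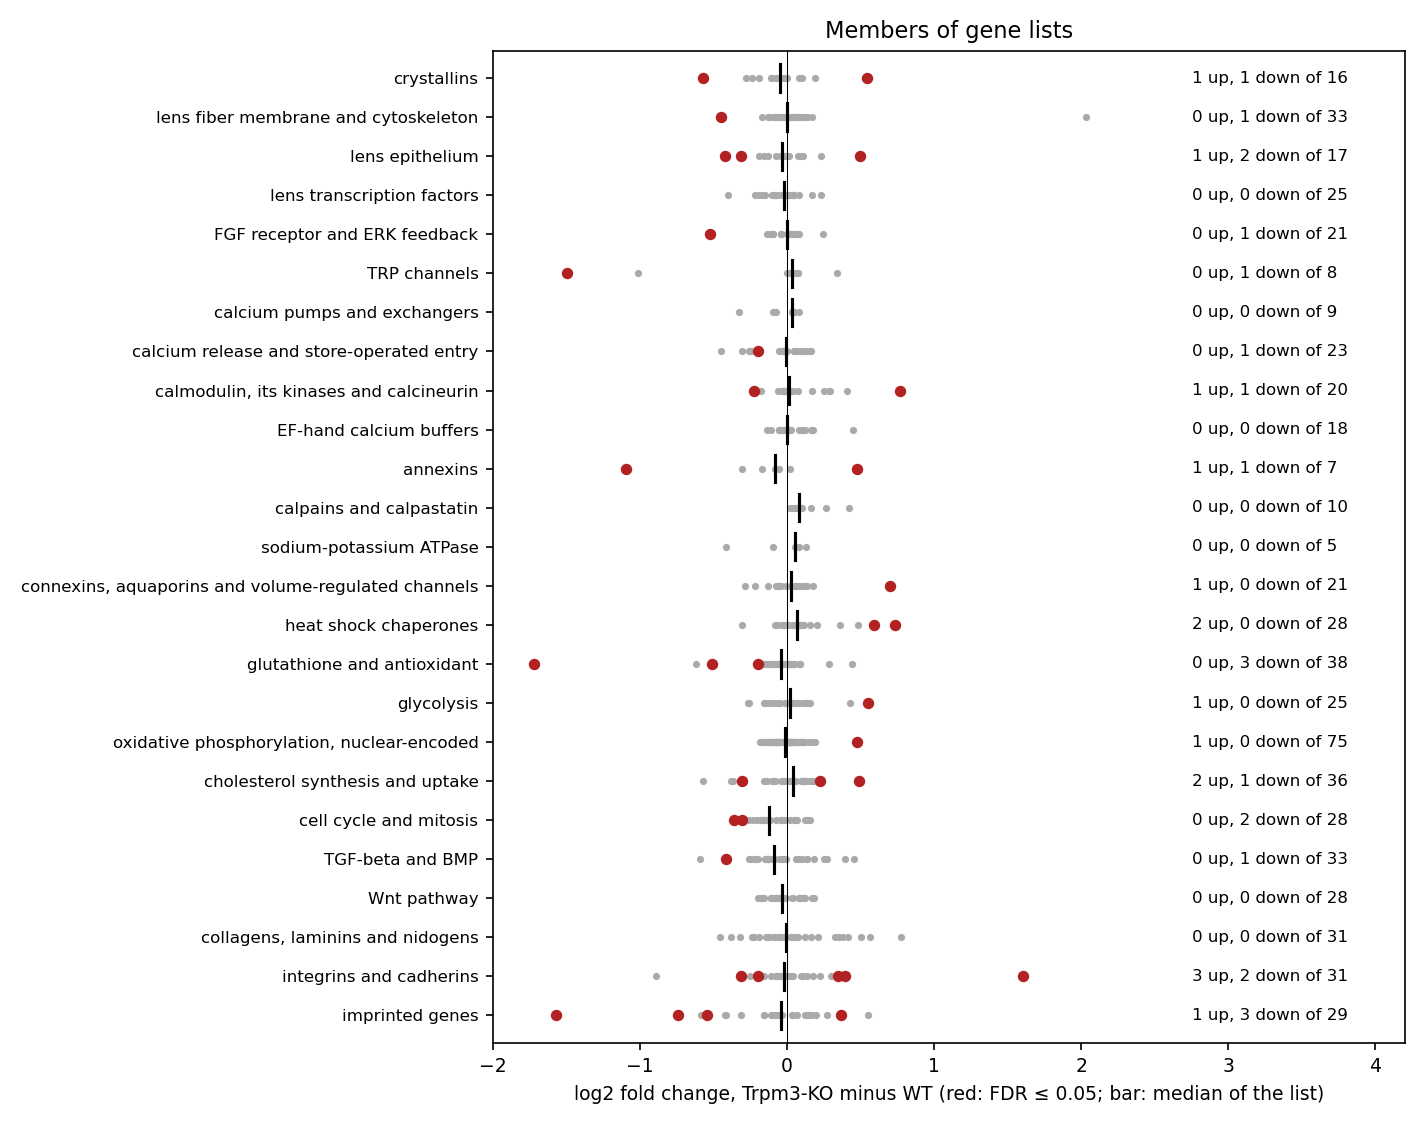
Log2 fold change of Trpm3-KO over WT for the tested members of 25 gene lists, 1 point a gene, in red where the adjusted p was at most 0.05, with a black bar at each list's median and the numbers that rose and fell at the right. Medians lie between −0.13 and 0.08, and no list has more than 5 members past the test.

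The solute carriers carry ions and nutrients across membranes. Of 125 tested solute carriers 11 passed (8.80%, beside 4.36% of all tested genes), 7 higher and 4 lower, with a median of −0.0045. *Slc22a17*, a receptor for lipocalin, was at 44.3, 43.3 and 46.2 CPM in WT and 80.3, 75.8 and 80.2 CPM in *Trpm3*-KO libraries (0.82, standard error 0.04, adjusted p = 6.81e-08). *Slc41a3*, a magnesium transporter, was at 4.21, 4.14 and 4.60 CPM in WT and 8.49, 8.28 and 9.05 CPM in *Trpm3*-KO libraries (1.00, standard error 0.08, adjusted p = 3.46e-06). *Slc7a8*, an amino acid transporter, was at 193, 182 and 190.4 CPM in WT and 233, 252 and 260.2 CPM in *Trpm3*-KO libraries (0.40, standard error 0.06, adjusted p = 0.00117). All 3 rose in every *Trpm3*-KO library, and with *Slc26a11* they are the 4 with the smallest p. Of 24 ABC transporters *Abcb1b* was the 1 that passed, and of 4 tested carbonic anhydrases *Car14* fell (−0.39, adjusted p = 0.0216), a call kept in 8 of 14 other fits.

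Among stress and redox genes, the small heat shock proteins *Hspb1* and *Hspb8* rose. *Hspb1* was at 815, 977 and 869 CPM in WT and 1363, 1311 and 1327 CPM in *Trpm3*-KO libraries (0.59, standard error 0.13, adjusted p = 0.0177), and *Hspb8* at 2.48, 2.19 and 3.11 CPM in WT and 4.07, 4.14 and 4.73 CPM in *Trpm3*-KO libraries (0.73, standard error 0.15, adjusted p = 0.0115). They were the 2 of 28 tested chaperones that passed (7.14%, beside 4.36% of all tested genes), and the calls were kept in 9 of 14 and 11 of 13 other fits. *Atf5* and *Slc3a2*, both targets of the integrated stress response, rose by 0.31 and 0.16 among 32 genes of the unfolded protein and integrated stress response, and the call of *Slc3a2* was kept in 2 of 14 other fits. Of 38 glutathione and antioxidant genes 3 passed, and all 3 were lower when counted alone. *Gsta4*, a transferase for lipid aldehydes, was at 7.12, 4.87 and 10.3 CPM in WT and 2.09, 2.19 and 2.46 CPM in *Trpm3*-KO libraries (−1.73, standard error 0.30, adjusted p = 0.0039). The other 2 were *Gsr*, glutathione reductase (−0.51), and *Sod2*, the mitochondrial superoxide dismutase (−0.20). Summed with *Gm36684* and *Rps6ka2*, the *Sod2* family did not pass (−0.05, standard error 0.05, adjusted p = 0.669). *Ndrg1*, a hypoxia-induced gene, was at 651, 739 and 836 CPM in WT and 1160.4, 1207 and 1186 CPM in *Trpm3*-KO libraries (0.68, standard error 0.10, adjusted p = 0.00139), the 1 of 23 hypoxia genes that passed.

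In energy metabolism, *Pgam2*, a phosphoglycerate mutase of glycolysis, was at 535, 591 and 520.2 CPM in WT and 847, 793 and 764 CPM in *Trpm3*-KO libraries (0.55, standard error 0.08, adjusted p = 0.000684), and the other 24 tested glycolysis genes did not pass. Of 75 nuclear genes of oxidative phosphorylation *Cox5b*, a subunit of cytochrome c oxidase, was the 1 that passed, at 76.6, 82.9 and 79.96 CPM in WT and 118, 110.1 and 105 CPM in *Trpm3*-KO libraries (0.48, standard error 0.06, adjusted p = 0.000201). None of the 13 mitochondrially encoded genes passed, with a median of 0.16 and 12 of 13 above 0. Their summed levels overlapped between the groups, at 10686, 9962 and 9435 CPM in WT and 10387.5, 13196.6 and 10867 CPM in *Trpm3*-KO libraries. The highest was that of *Trpm3*-KO replicate 2. *Npc1*, which exports cholesterol from lysosomes, rose from 12.6, 11.6 and 12.3 CPM to 17.2, 17.1 and 16.96 CPM (0.49, standard error 0.05, adjusted p = 4.89e-05). Of the other 35 tested sterol genes, *Cyp51* rose by 0.23 (kept in 7 of 14 other fits) and *Srebf1*, a regulator of lipid synthesis, fell (−0.31, adjusted p = 0.00646). *Stra6*, the retinol uptake receptor, fell (−0.42, adjusted p = 0.0166), the 1 of 16 aldehyde, retinoid and polyol genes that passed.

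Fiber cells clear their organelles. Of 42 tested genes of autophagy and organelle removal 3 passed (7.14%, beside 4.36% of all tested genes), all higher. The median of the list was 0.02, with 23 of 42 genes above 0. *Fyco1*, an adaptor that moves autophagosomes and is mutated in inherited cataract, was at 35.3, 33.9 and 35.8 CPM in WT and 64.02, 73.1 and 64.1 CPM in *Trpm3*-KO libraries (0.94, standard error 0.06, adjusted p = 8.14e-07). *Alox15*, a lipoxygenase that oxidizes membrane lipids of organelles, was at 20.8, 21.8 and 18.3 CPM in WT and 37.7, 37.7 and 37.8 CPM in *Trpm3*-KO libraries (0.89, standard error 0.13, adjusted p = 0.00121). *Atg3*, which lipidates LC3, rose by 0.23, a call kept in 9 of 14 other fits. In the 3 *Trpm3*-I/M libraries, and then in the 3 of *Trpm3*-M/M, *Fyco1* was at 32.6, 31.9 and 34.1 CPM and 34.8, 32.1 and 37.2 CPM, and *Alox15* at 33.3, 39.7 and 36.3 CPM and 36.1, 45.4 and 28.4 CPM. The *Fyco1* levels of both mutants thus lay around those of WT and below those of *Trpm3*-KO, and the *Alox15* levels of both around those of *Trpm3*-KO and above those of WT. No test between these groups was made here.

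In adhesion and the cytoskeleton, 5 of 31 tested integrins and cadherins passed (16.1%, beside 4.36% of all tested genes). Beside *Pcdh17* and *Cdh1* these were *Cdh4* (0.39), the α-catenin *Ctnna2* (−0.20) and the collagen receptor subunit *Itga2* (0.34), the last 2 kept in 8 of 14 and 7 of 14 other fits. The cytoplasmic actin *Actg1* (0.19) and the tropomyosin *Tpm1* (0.48) rose, and *Tpm1* was at 18.8, 18.3 and 17.5 CPM in WT and 25.2, 26.1 and 25.1 CPM in *Trpm3*-KO libraries. None of 31 collagens, laminins and nidogens passed, with the capsule collagen *Col4a1* at 3079, 2850.1 and 3324 CPM in WT and 2672, 2859 and 2837 CPM in *Trpm3*-KO libraries. Of 25 matricellular genes *Bgn*, a small proteoglycan, rose (0.43) and *Emilin1* fell (−0.26). Both matrix proteases that passed fell, the membrane metalloprotease *Mmp14* (−0.55) and *Plat*, the tissue plasminogen activator (−1.04), with adjusted p of 0.0332 and 0.0398. The calls of *Emilin1*, *Mmp14* and *Plat* were kept in 5 of 14, 8 of 14 and 8 of 13 other fits.

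Calls in the signaling lists can likewise be read against 4.36% of all tested genes. None of 28 Wnt genes passed. In the TGF-β and BMP list *Acvr2b*, an activin receptor, fell (−0.42, standard error 0.08, adjusted p = 0.00932), and in the Notch list *Dtx1* fell (−0.45, standard error 0.08, adjusted p = 0.0064). Of 36 ephrins, semaphorins, netrins and slits and their receptors 3 passed, *Dcc*, a netrin receptor, at 1.83, 2.02 and 1.78 CPM in WT and 0.692, 0.705 and 0.657 CPM in *Trpm3*-KO libraries (−1.45, standard error 0.25, adjusted p = 0.0037), *Ephb4* (−0.26) and *Ntng2* (0.22). The calls of *Ephb4* and *Ntng2* were kept in 8 of 14 and 4 of 14 other fits. The clock output factor *Hlf* fell (−0.25), the 1 of 22 clock genes that passed, in 5 of 14 other fits. No interferon-stimulated (of 6), antigen presentation (of 7) or complement gene (of 4) passed.

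The peptide hormone gene *Gcg* and the growth factor gene *Igf2* were among the larger falls. *Igf2*, an imprinted growth factor, was at 43.1, 24.4 and 47.9 CPM in WT and 12.6, 12.7 and 13.5 CPM in *Trpm3*-KO libraries (−1.57, standard error 0.22, adjusted p = 0.000652). *Gcg*, the glucagon precursor, was at 56.3, 95.9 and 38.95 CPM in WT and 30.1, 26.4 and 30.4 CPM in *Trpm3*-KO libraries (−1.14, standard error 0.25, adjusted p = 0.0182). The *Trpm3*-KO libraries lay close together for both genes while the WT libraries ranged widely, and the call of *Gcg* was kept in 11 of 14 other fits. *Cpe*, a carboxypeptidase that trims prohormones, fell (−0.42, kept in 9 of 14 other fits). With *Gcg* it made up the 2 of 8 tested secretory genes that passed (25.0%, beside 4.36% of all tested genes). The median of that list was −0.03, with 3 of 8 genes above 0, and its highest change, 2.535, did not pass. *Ide*, the insulin-degrading enzyme, was at 179, 173 and 143 CPM in WT and 79.7, 82.04 and 80.02 CPM in *Trpm3*-KO libraries (−1.03, standard error 0.07, adjusted p = 8.14e-07). Of 29 tested imprinted genes 4 passed (13.8%, beside 4.36% of all tested genes). They were *Igf2*, *Rian* (−0.74) and *Snurf* (−0.55), which were lower, and *Impact* (0.36), which was higher. *Snurf* shares its sequence with *Snrpn*, and their sum did not pass (−0.18, standard error 0.05, adjusted p = 0.0596), while counted alone its call was kept in 9 of 14 other fits. *H19*, the noncoding neighbor of *Igf2*, was at 21.96, 16.2 and 22.5 CPM in WT and 15.5, 13.8 and 11.2 CPM in *Trpm3*-KO libraries and did not pass (adjusted p = 0.073).

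Of 85 tested cytosolic ribosomal proteins 5 passed (5.88%, beside 4.36% of all tested genes), *Rpsa* higher and *Rps19*, *Rps18*, *Rps2* and *Rps9* lower. Calls of the last 3 were kept in 7 of 14, 7 of 14 and 4 of 14 other fits. The median was −0.06 with 16 of 85 above 0. Their summed levels overlapped between the groups, at 20354, 22527.6 and 20991.8 CPM in WT and 21053.4, 20728 and 20137.5 CPM in *Trpm3*-KO libraries. *Rps19* was at 151, 158 and 159 CPM in WT and 131, 131 and 128 CPM in *Trpm3*-KO libraries (−0.27, standard error 0.04, adjusted p = 0.00279). *Rpsa* summed with its copy was lower. Of 147 tested zinc finger genes 4 passed (2.72%), of which *Zfp131* (0.85) and *Zfp651* (0.44) rose and *Zfp219* (−0.42) and *Zfp949* (−1.05) fell. None of 11 histone genes passed.

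Lists held 103 of the 392 changed genes, and 289 belonged to none. Several of these share a function, and the following were picked after their values were seen, without regard to members that did not pass. Enzymes of fatty acid oxidation were higher, *Acadl* (0.59) in mitochondria and *Acaa1a* (0.93) in peroxisomes. *Pygl*, which breaks down glycogen, was at 52.4, 71.6 and 41.4 CPM in WT and 106, 105 and 113 CPM in *Trpm3*-KO libraries (0.97), and the glycogen-branching enzyme *Gbe1* (−0.46) and the targeting subunit *Ppp1r3c* (−0.44) were lower. The lysosomal enzymes *Hgsnat* (0.96), *Asah1* (0.51) and *Sgsh* (0.37) were higher and *Man2b1* (−0.19) lower. Microtubule genes moved both ways, with *Tubb2a*, *Tubb2b*, *Map2* (0.87) and *Kif5b* (0.32) higher and *Tubb4a* (−0.33), *Tubb6* (−0.30) and *Mapre2* (−0.41) lower. *Chrna4*, a nicotinic receptor subunit, was at 29.98, 31.1 and 30.1 CPM in WT and 16.1, 16.3 and 17.5 CPM in *Trpm3*-KO libraries (−0.87), and the scavenger receptor *Colec12* at 9.40, 9.60 and 10.96 CPM in WT and 4.50, 4.43 and 4.73 CPM in *Trpm3*-KO libraries (−1.13).

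Markers of other eye tissues were examined next. Of 20 endothelial markers 10 were tested and none passed, with summed levels of 15.5 to 18.4 CPM in WT and 15.3 to 16.3 CPM in *Trpm3*-KO libraries. None of 20 macrophage or 15 muscle markers reached the minimum level for testing. Photoreceptor markers summed to 19.2 to 20.03 CPM in WT and 16.6 to 17.9 CPM in *Trpm3*-KO libraries, and neither of the 2 tested passed. Of 15 markers of pericytes, smooth muscle and fibroblasts, which summed to 183.8 to 193.2 CPM in WT and 149.3 to 157.6 CPM in *Trpm3*-KO libraries, *Pdgfra*, itself a lens epithelial gene, fell and *Pdgfrb* rose (0.56). *Glul* fell (−0.27) in the list of retinal neurons and Müller glia, and *Aqp4* rose in that of the ciliary epithelium. The calls numbered 2 of 9 tested pericyte, 1 of 5 retinal and 1 of 3 ciliary markers, beside 4.36% of all tested genes, and that of *Glul* was kept in 6 of 14 other fits. Macrophage markers summed to 2.34 to 2.65 CPM in WT and 1.89 to 2.12 CPM in *Trpm3*-KO libraries, and the retinal list to 1726 to 1805 CPM and 1857 to 1905 CPM, most of it from *Dkk3*. The sums of the pericyte, photoreceptor and macrophage lists (all lower in *Trpm3*-KO) and of the retinal list (higher) did not overlap between the groups. Those of the other marker lists did, and no difference between sums was tested. Of 20 macrophage markers 19 were under 1 CPM in all 6 libraries, and the pericyte sum includes *Pdgfra*. The part of these lists in other changes was not tested. None of 2 red blood cell, 2 pigment cell and 3 corneal markers tested passed. Fewer cells of a type and less RNA per cell cannot be told apart in pooled lens RNA. *Xist*, expressed from the inactive X chromosome, was at 210.3, 45.8 and 162 CPM in WT and 146, 305 and 166 CPM in *Trpm3*-KO libraries, a wide spread among pools described alike, and none of 4 tested sex-linked genes passed.

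Changed genes were spread unevenly over the chromosomes. On chromosome 14, 42 of 308 tested genes passed (13.6%), and on chromosome 18, 29 of 251 (11.6%), beside 4.36% of all tested genes. The lowest shares among the autosomes were 1.55% on chromosome 4 (9 of 579) and 1.75% on chromosome 15 (6 of 343). Chromosomes were also divided into windows of 10 Mb. Between 10 and 20 Mb of chromosome 18, 10 of 16 tested genes passed and all 10 were higher. They were *Rock1*, *Esco1* (0.97), *Mib1*, *Riok3* (0.55), *Rmc1* (0.81), *Aqp4*, *Npc1*, *Impact*, *Cables1* and *Osbpl1a* (0.93). From 0 to 10 Mb on chromosome 17, 10 of 23 passed, 5 in each direction, with *Dynlt1b*, *Dynlt1c* and *Dynlt1f*, both *Rnaset2* genes and *Rsph3b* among them. From 30 to 40 Mb on chromosome 3, 11 of 32 passed, including *Sox2ot*, *Anxa5* and *Spry1*. Windows were ranked by their number of changed genes, so their shares are a description and no test. These genes were named by position after the values were seen.

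**Figure D5:**
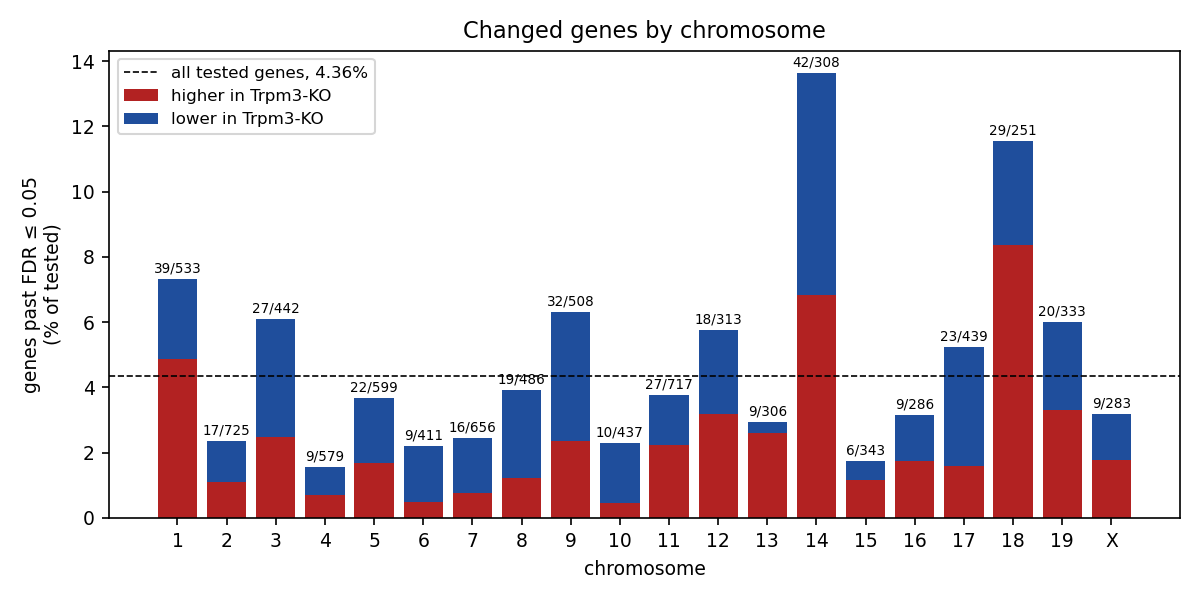
Percent of tested genes past an adjusted p of 0.05 on chromosomes 1 to 19 and X, divided into genes higher (red) and lower (blue) in Trpm3-KO, with numbers of passed and tested genes above the bars and a dashed line at 4.36% for all tested genes. Chromosomes 14 and 18 stand highest, at 13.6% and 11.6%.

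Around *Trpm3*, 8 of 54 other genes within 10 Mb passed (14.8%), 5 higher and 3 lower. On the whole of chromosome 19, 20 of 333 tested genes passed (6.01%), beside 4.36% of all tested genes. *Klf9*, a glucocorticoid-responsive transcription factor 0.146 Mb away, was at 10.1, 10.9 and 8.82 CPM in WT and 6.13, 5.17 and 6.09 CPM in *Trpm3*-KO libraries (−0.78, standard error 0.10, adjusted p = 0.000294), and *Cemip2*, a hyaluronidase 0.281 Mb away on the other side, at 18.5, 17.2 and 17.6 CPM in WT and 21.8, 22.2 and 22.5 CPM in *Trpm3*-KO libraries (0.32). *Gldc*, a glycine-cleaving enzyme of mitochondria 7.10 Mb away, was at 24.3, 23.01 and 23.7 CPM in WT and 52.7, 49.3 and 49.6 CPM in *Trpm3*-KO libraries (1.09, standard error 0.05, adjusted p = 1.58e-08). *Prune2* (1.08), *Tmem252* (0.54) and *Uhrf2* (0.23) were also higher, and *Carnmt1* (−0.74) and *Pip5k1b* (−0.93) lower. *Pip5k1b*, a lipid kinase, ranged over 5.96, 10.001 and 14.5 CPM in WT, and its call was kept in 8 of 14 other fits. *Carnmt1* forms a near-identical family with *Gm8116*, which rose (0.77), and their sum changed by −0.17 (standard error 0.06, adjusted p = 0.148).

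Among 13 tested genes of a list known to differ between inbred mouse strains, 3 passed (23.1%, beside 4.36% of all tested genes). The list was chosen with earlier results of these data known, so this share is a description and no test. These were *Wdfy1* and *Ide*, both lower, and *Mid1*, higher (0.59, adjusted p = 0.0351, kept in 7 of 14 other fits). The other 10, *Bfsp2* and *Nnt* among them, did not pass. The part of strain of origin in the changes by position was not tested. For the leading genes, levels in the 2 mutants are given side by side, as both are compared with the same WT libraries. *Sox2ot* was at 7.77, 8.48 and 7.35 CPM in *Trpm3*-I/M and 3.33, 3.41 and 3.18 CPM in *Trpm3*-M/M libraries, below its WT values, whereas it was above them in *Trpm3*-KO. *Aox4* was at 0.0135, 0.109 and 0.0432 CPM and 0.0125, 0.0108 and 0 CPM, *Misp* at 46.7, 48.9 and 30.6 CPM and 30.2, 21.9 and 24.5 CPM, and *Wdfy1* at 10.5, 8.03 and 11.3 CPM and 12.9, 10.97 and 11.5 CPM. In these 3 genes none of the 6 libraries reached the range of *Trpm3*-KO. *Anxa5* was at 30.1, 29.4 and 28.5 CPM and 38.8, 48.9 and 48.9 CPM, all above the WT range, and *Gldc* at 16.04, 16.1 and 18.03 CPM and 12.2, 12.03 and 11.6 CPM, all below it.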

How the data were processed

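Polyadenylated RNA of 12 lens pools was sequenced, and the authors deposited 1 table of estimated counts per gene, unnormalized (88.4% of values whole), quantified with DRAGEN on mm10 per the labels. The design had assumed whole counts, so these were rounded. Of 55487 gene identifiers, 168 were listed more than once with equal values, and 1 entry of each was kept. Genes with at least 5 CPM in at least 3 of 12 libraries were tested by quasi-likelihood fits on genotype alone (edgeR 4.0.16, TMM, R 4.3.3; changed genes at an adjusted p of 0.05). Total counts bound precision at low levels: 3 counts in a library, the limit for a count of 0, equalled 0.0556 CPM. Near-identical genes were found with blastn 2.17.0+ (GENCODE vM21, GRCm38) and summed; DESeq2 1.42.0, other scalings, filters and left-out libraries were alternatives. The fit was tested on simulated counts. Members and lists were chosen with earlier results of these data known. Genes named were *Trpm3*, the 15 largest rises and falls past both thresholds with at least 5 CPM in the higher group, up to 4 changed genes with the smallest p in each list (where none changed, up to 2 of the highest level), and changed genes within 10 Mb of *Trpm3*; others were picked after their values were seen.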

Additional observations from a re-analysis of the deposited data

How the results depend on the processing

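Of the 392 changed genes, 197 passed in each of the 14 other fits at the same threshold in which they were tested, near-identical genes summed not included, and *Trpm3* was among them. Past both thresholds, a minimum of 1 CPM gave 46 higher and 57 lower genes, a test against a 2-fold change (glmTreat) 7 and 12, and near-identical genes summed 16 and 19. With no filter on low counts 594 genes were higher and 597 lower, of which 151 and 192 also passed 2-fold, with 32253 genes tested. Library size in place of TMM gave 252 and 114 at the adjusted p alone. DESeq2 gave 261 and 293. With the WT and *Trpm3*-KO libraries alone, 7858 genes were tested, 188 were higher and 166 lower, and 291 of the 392 passed again. In that fit 42 of the 392 were not tested, and 12 of these were among the 51 past both thresholds. Leaving out 1 library, which leaves 2 in its group, gave 118 to 213 higher and 114 to 195 lower genes, and 12 to 24 higher and 24 to 33 lower past both thresholds. The low ends came without 1 *Trpm3*-KO library. Of the 392 genes, 12 or 13 were then no longer tested, and the cause of the other losses was not tested. The log2 fold change of *Rpsa* turned to −0.31 when it was summed with *Rpsa-ps10*. With replicate number as a block 174 genes were higher and 167 lower, and 21 and 30 passed both thresholds. Libraries with the same number deviated from their group means with correlations of −0.13, −0.26 and −0.10, and those with unlike numbers from −0.09 to 0.22. No pairing by number was thus seen, but so few libraries cannot exclude a shared litter or preparation. Levels below about 1 CPM rest on few counts, and counts of near-identical genes cannot be told apart at this resolution.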
